A study of Mus musculus with 11 samples.

Results

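Heart RNA of mice in which macrophages carrying CD169 had been depleted was set against that of wild-type mice given the same toxin. All libraries of these groups were used, 3 labelled cTMs Depleted and 3 labelled WT, or 6 of the 11 libraries in the series. The cTMs Depleted mice carried CD169-DTR, a diphtheria toxin receptor placed under CD169, and were depleted for 21 days. The WT mice lacked that receptor. Both groups received diphtheria toxin 3 times a week over 3 weeks, with 0.01 µg per g body weight at each injection, and all were males of 8 to 12 weeks. The RNA was polyA RNA of whole cardiac tissue, so it pools cardiomyocytes with every other cell of the organ, and a lower value can mean fewer cells of a type or less RNA per cell, which cannot be told apart here. The allele and the depletion were present in the same 3 libraries and cannot be told apart either. The remaining libraries, 2 labelled Mertk-KO and 3 labelled LxRαβ DKO, entered the fit to estimate the spread, and their labels do not say if those mice received toxin.

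CD169, encoded by Siglec1, is a sialic acid-binding receptor on the surface of tissue-resident macrophages. Resident macrophages of the heart lie between cardiomyocytes, take up dying cells and cell debris, and carry receptors for phosphatidylserine, haptoglobin-bound haemoglobin and folate. They maintain themselves largely by division in place, while monocytes that enter from the blood carry the chemokine receptor Ccr2. A diphtheria toxin receptor under the control of a cell type's own gene makes those cells sensitive to the toxin, to which mouse cells are otherwise largely resistant.

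The cTMs Depleted libraries held 10938600, 20517786 and 20722295 estimated reads and the WT libraries 14295229 to 14860043. Values are given as normalised counts, which are estimated reads scaled to a common library size. A count of 0 allows up to 3 reads, worth 2.12 to 4.22 normalised counts in these 6 libraries, for counting error only. Replicates correlated across genes at 0.980 to 0.987 among cTMs Depleted and at 0.982 to 0.985 among WT. The first principal component of the 6 libraries held 32.2% of the variance and placed the cTMs Depleted libraries at -5.12 to -29.0 and the WT libraries at 11.2 to 21.1. The second held 21.7% and set cTMs Depleted 1 apart, at 33.0 against -12.3 to 3.99 for the other 5. That library was also the shallowest and kept the most Siglec1, so counts are given with and without it. The labels do not tie the libraries to separate mice, so a p-value here measures only how these libraries vary, part of which may be technical.

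Of 13884 genes tested, 33 changed (0.238%) at an adjusted p below 0.05 in limma's moderated test, 11 of them higher (0.0792%) and 22 lower (0.158%) in cTMs Depleted hearts. Without cTMs Depleted 1 the count was 41, of which 23 were among the 33. At an unadjusted p below 0.05, 448 genes were higher (3.23%) and 598 lower (4.31%). In all 33 genes the 3 cTMs Depleted libraries did not overlap with the 3 WT libraries. Such separation occurred in 1182 genes in the higher direction (8.51%) and in 1131 in the lower direction (8.15%). Single libraries weighed heavily: 16 genes passed without cTMs Depleted 2, 9 without cTMs Depleted 3, 6 without WT 1, 15 without WT 2 and 3 without WT 3. Leaving out Mertk-KO 1 or Mertk-KO 2 gave 84 and 83, among which were all 33. Only Timd4, Trf and Pcna-ps2 passed in each of the 11 fits that left out 1 library, and Cd163 and Apln passed in 10.

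**Figure D1:**
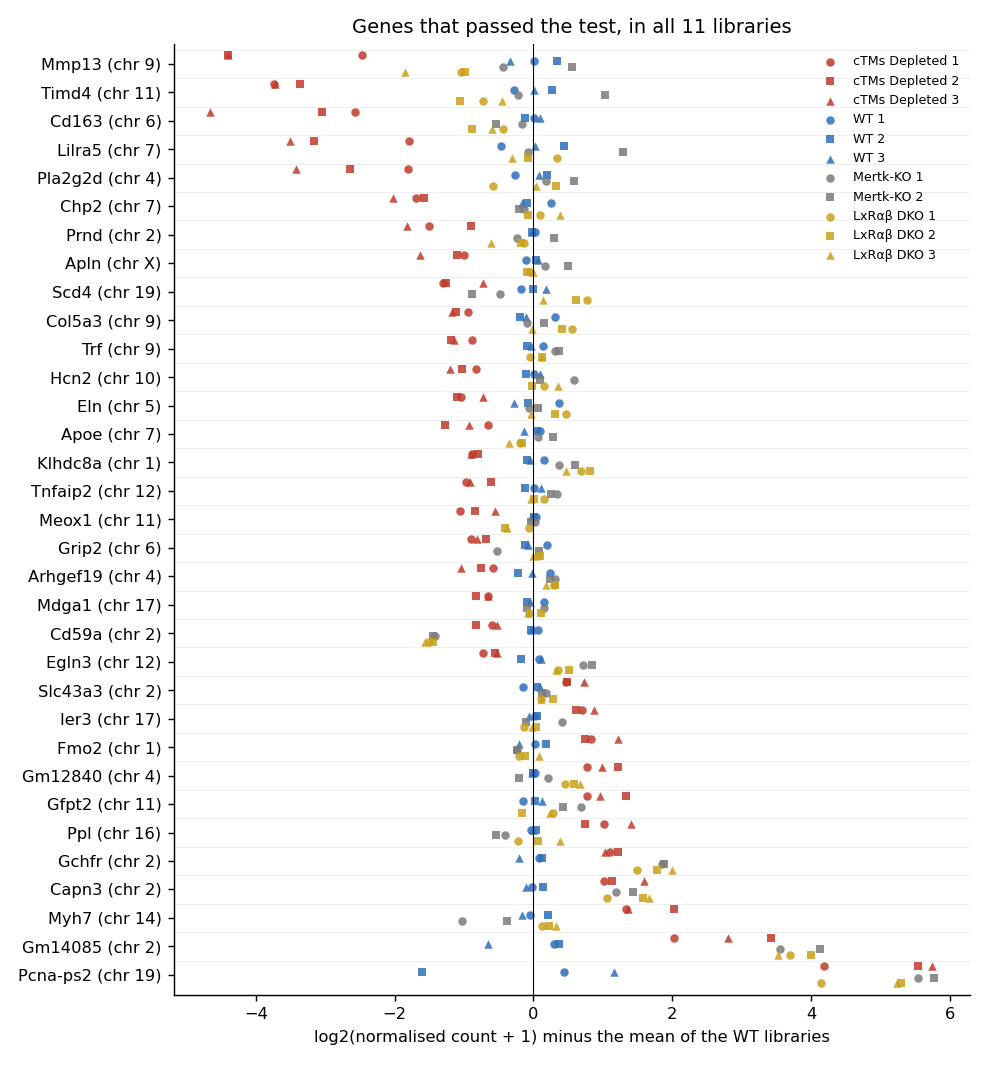
Each row is 1 of the 33 genes that passed, with its chromosome, and each point is 1 of the 11 libraries, placed on the x axis by log2(normalised count + 1) minus the mean of the WT libraries. The red cTMs Depleted points lie clear of the blue WT points in all 33 rows, and in a few rows, such as Cd59a, Gchfr and Gm14085, the Mertk-KO and LxRαβ DKO points lie away from WT too.

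The gene used to target the cells was examined first. Siglec1 (ENSMUSG00000027322, GRCm38 chr2:131069220-131086765, minus strand) had 33.8, 2.12 and 0.719 normalised counts in cTMs Depleted 1, 2 and 3 and 64.3, 55.3 and 53.4 in WT 1, 2 and 3. All cTMs Depleted libraries lay below all WT libraries, but cTMs Depleted 1 kept far more than the other 2. The difference of -3.36 on the log2 scale (SE 0.80) did not pass (limma adjusted p 0.178). Without cTMs Depleted 1 it was -4.66 and passed (limma adjusted p 0.000159). It passed in 4 of 25 alternatives, which spanned 0.000159 to 0.544, and in 1 of the 11 fits that left out 1 library. That library was singled out partly for its Siglec1 value, so this pass follows from the choice and lends no support. Calls made without that library for other macrophage genes are not independent of that choice either. The receptor is driven by this same locus, so Siglec1 measures the allele as well as the cells.

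Genes that mark resident macrophages of the heart were lower in cTMs Depleted hearts, and the strongest differences were in Timd4 and Cd163. Timd4, a receptor that binds phosphatidylserine on dying cells, had 1.41, 2.12 and 1.44 normalised counts in the cTMs Depleted libraries and 25.5, 37.9 and 31.4 in WT. All 3 cTMs Depleted values lay at or below the level that a count of 0 allows. In reads this was 6 against 91, a ratio of 0.0539 after scaling for depth (exact 95% interval 0.0193 to 0.122, counting error only). Timd4 fell by 3.61 in log2 units (SE 0.37, adjusted p 0.00343 by limma). Unlike Siglec1, it was as low in cTMs Depleted 1 as in the other 2 libraries. Cd163, the scavenger receptor for haptoglobin-bound haemoglobin, had 36.6, 26.2 and 7.89 against 225, 206 and 239. It fell by 3.42 (SE 0.39, adjusted p 0.00749), to 10.5% of the WT mean, and lost the call only without WT 3 (adjusted p 0.0548, range 0.000215 to 0.0548) among the 11 fits that left out 1 library.

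The rest of the resident macrophage list showed a graded picture. Of its 16 genes 15 were tested; all 15 were lower (of all genes tested, 50.8% had a fitted difference above 0), 2 passed, 13 had an unadjusted p below 0.05 and 13 did not overlap between groups, and the median difference was -1.38 against 0.003 over all genes tested, or -0.59 without cTMs Depleted 3. Among all genes tested, 4.31% were lower at an unadjusted p below 0.05 and 8.15% were lower without overlap. Folr2, the folate receptor of these cells, had 74.6, 38.2 and 13.7 normalised counts against 135, 132 and 103 in WT and passed without cTMs Depleted 1 (adjusted p 0.0205, main value 0.177, range 0.0152 to 0.544 over 26 alternatives). The hyaluronan receptor gene Lyve1 was at 141, 153 and 92.1 against 194, 202 and 228. The mannose receptor gene Mrc1 was at 410, 348 and 77.7 against 455, 522 and 433, and the coagulation factor gene F13a1 at 417, 303 and 46.8 against 496, 580 and 537. In both, cTMs Depleted 1 and 2 lay closer to WT than to cTMs Depleted 3. Cbr2 (127, 92.6 and 10.8 against 182, 187 and 160), Pf4 (60.5, 53.7 and 13.7 against 86.1, 103 and 94.3) and Fcna (12.7, 16.3 and 1.44 against 19.1, 25.6 and 18.9) were lowest in cTMs Depleted 3 as well. Stab1, Igf1 and Mertk differed less, at -0.64, -0.72 and -0.50 on the log2 scale, and Maf (-0.53) overlapped between groups. Gas6, a bridging ligand that many cell types make, had 1885, 1667 and 1587 against 1831, 1682 and 1716, a difference of -0.03. Vsig4, a complement receptor, was too low to be tested: it had 0 reads in every cTMs Depleted library, against 8.51, 18.4 and 10.5 normalised counts in the WT libraries. It was at least 14.7-fold lower, taking 3 reads over the group as the most that 0 allows. The median of the list relative to the WT mean was -0.56, -0.53 and -2.70 in cTMs Depleted 1, 2 and 3 and -0.06 to 0.11 in WT, so that the group is not uniform and cTMs Depleted 3 stood lowest.

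**Figure D2:**
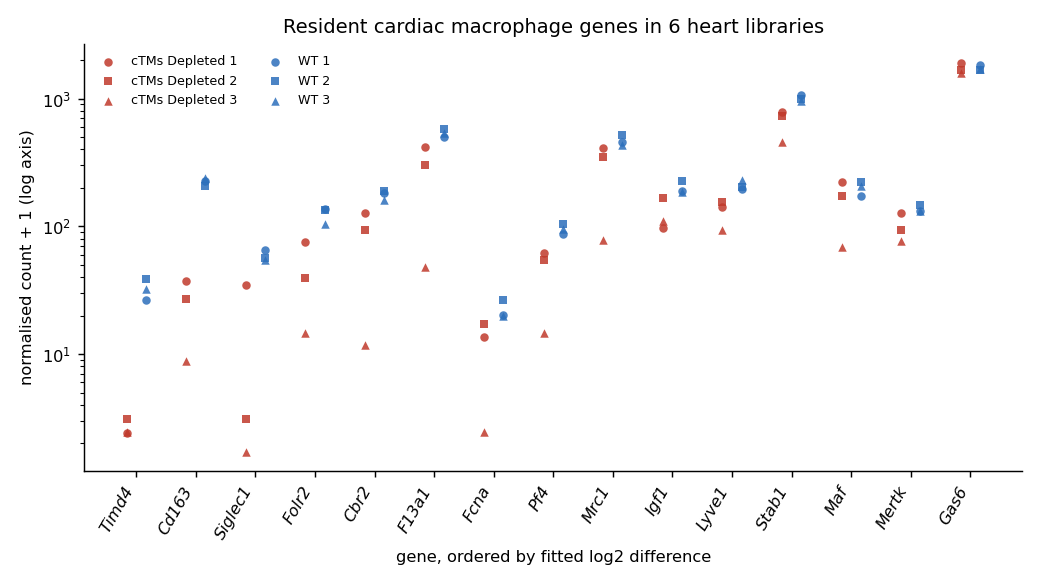
Normalised count + 1 on a log axis for the 15 tested resident macrophage genes, ordered by fitted log2 difference, with 1 point per library (red cTMs Depleted, blue WT; the shape gives the replicate). Timd4, Siglec1 and Cd163 separate most at the left, Gas6 at the right does not separate, and cTMs Depleted 3 is the lowest point in most genes.

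Genes shared by most macrophages were lower by less. Of 18 pan-macrophage genes, 17 were lower, 0 passed in limma (10 had an unadjusted p below 0.05 and 9 did not overlap), and the median was -0.90, or -0.41 without cTMs Depleted 3. The matching shares over all genes tested, in the lower direction, were 4.31% and 8.15%. Csf1r, the receptor for the macrophage growth factor CSF1, was at 419, 306 and 196 normalised counts against 576, 648 and 625, and passed without cTMs Depleted 1 (adjusted p 0.00966, main value 0.0748, range 0.00452 to 0.298). Cx3cr1, the fractalkine receptor, was at 33.8, 45.3 and 25.3 against 80.8, 134 and 122, at 31.0% of the WT mean (adjusted p 0.0757). Lyz2, which encodes lysozyme, was at 1088, 891 and 677 against 1390, 1698 and 1428. The F4/80 gene Adgre1 was at 121, 103 and 40.3 against 149, 127 and 157. The differences of Fcgr1, Cd14 and Laptm5 were -1.25, -0.96 and -0.37, those of Aif1, Ms4a7, Tyrobp, Ctss and Spi1 between -1.73 and -0.33 with overlapping libraries. Cd68 (-0.13), Fcer1g (-0.15) and Itgam (0.21) were close to WT. Those last genes are also expressed by monocytes or other myeloid cells, whose part in these values was not tested. The list's median was -0.29, -0.59 and -1.61 in cTMs Depleted 1, 2 and 3, and its summed level was 1769 to 3299 normalised counts against 4133 to 5014 in WT.

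Genes of monocytes and recruited macrophages were not lower. Of 11 listed genes 9 were tested; 8 were higher, 1 was lower and 0 passed in limma, with 2 at an unadjusted p below 0.05 and a median of 0.18, or 0.29 without cTMs Depleted 1. Both of those were higher, as were 3.23% of all genes tested at that p. Ccr2 had 180, 145 and 112 normalised counts in the cTMs Depleted libraries and 54.9, 74.1 and 61.4 in WT. The groups did not overlap, at 229% of the WT mean, but the difference of 1.17 (SE 0.34) did not pass (adjusted p 0.302). It passed when only these 2 groups were fitted (0.0387, in a range of 0.0239 to 0.832 over 26 alternatives). Ly6c2, a surface protein of inflammatory monocytes, was at 88.6, 63.6 and 77.7 against 46.7, 65.5 and 35.2, and Itgal at 36.6, 38.4 and 87.2 against 37.2, 28.7 and 31.4. Vcan, Fn1, Ly6c1, Nr4a1 and Thbs1 had differences between -0.15 and 0.32 with overlapping libraries. Plac8 and Chil3 were too low to be tested. The summed level of the list was 3162 to 3515 in cTMs Depleted and 2715 to 3186 in WT.

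Further genes with known expression in macrophages were among the 22 that fell. Lilra5, an activating receptor of myeloid cells, had 7.04, 2.12 and 1.44 normalised counts against 19.1, 36.9 and 27.2 (-2.82, adjusted p 0.0426), and passed in 3 of the 11 fits that left out 1 library. Pla2g2d, a secreted phospholipase A2, had 7.04, 3.48 and 1.60 against 22.3, 31.0 and 28.5 (-2.62, adjusted p 0.0248). Mmp13, a collagenase, had 2 reads over all cTMs Depleted libraries and 59 over all WT libraries, for a ratio of 0.0277 (exact 95% interval 0.00328 to 0.105, counting error only; adjusted p 0.0248). Pla2g2d and Mmp13 each passed in 6 of the 11 fits. The eosinophil-attracting chemokine gene Ccl24 had 4.90, 3.53 and 0 normalised counts against 25.5, 17.4 and 31.4; it did not pass (adjusted p 0.0748) but passed without cTMs Depleted 1 (0.0391, range 0.00681 to 0.323) and in the TPM table (0.0130). Of 16 tested genes of chemokines, cytokines and the inflammasome 10 were lower and 0 passed, with 1 higher and 4 lower at an unadjusted p below 0.05. At that p 3.23% of all genes tested were higher and 4.31% lower.

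Complement genes of macrophages were lower than in WT, and those of stromal and plasma origin mostly higher. C1qa, C1qb and C1qc encode C1q, which macrophages make. C1qa had 281, 209 and 61.9 normalised counts against 406, 462 and 383, C1qb had 272, 235 and 108 against 331, 457 and 372, and C1qc had 253, 185 and 57.6 against 353, 429 and 351. The receptor genes C3ar1 (-1.04) and C5ar1 (-0.79) were lower too, and in all 5 the groups did not overlap. In that list of 8 tested genes 6 were lower, 0 passed in limma and 5 had an unadjusted p below 0.05, with a median of -0.90, or -0.48 without cTMs Depleted 3. Of 11 tested components of stromal and plasma origin 8 were higher, with 7 at an unadjusted p below 0.05, 6 without overlap and a median of 0.53 over the list. The other 3 were lower, 2 of them at an unadjusted p below 0.05 and without overlap, and the only member of the list that passed, Cd59a, fell. The difference farthest from 0 in that list was the -2.71 of Cfd. Across all genes tested, 3.23% were higher and 4.31% lower at an unadjusted p below 0.05, and 8.51% and 8.15% did not overlap. C3, the central component, had 2803, 3753 and 5601 against 1937, 1742 and 1380. It was at 240% of the WT mean (log2 difference 1.22, SE 0.24, adjusted p 0.0748) and passed without cTMs Depleted 1 (0.0274, range 0.00317 to 0.323). Serping1, the C1 inhibitor, had 1363, 1656 and 1843 against 1189, 1189 and 1044 and also passed only without that library among the 3 fits that left out a cTMs Depleted library (0.0185, and 0.0469 and 0.0458 without either Mertk-KO library; main value 0.0939, range 0.00681 to 0.398). The differences of Cfb, C1ra, C1s1, C4b and C2 lay between 0.53 and 0.99, and C4b overlapped between groups. Cd59a, an inhibitor of the membrane attack complex, fell, from 991, 924 and 922 to 622, 533 and 654 (-0.65, adjusted p 0.0126), and lost the call without WT 1 (0.105), WT 2 (0.0507) or WT 3 (0.0759), in a range of 0.00185 to 0.105. The fibroblast list, from cells known to make several of these components, was at a median of 0.12 with 0 of 12 passing and no gene without overlap, and its summed level was 29295 to 38831 in cTMs Depleted and 27790 to 31702 in WT; its part in the result was not tested.

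**Figure D3:**
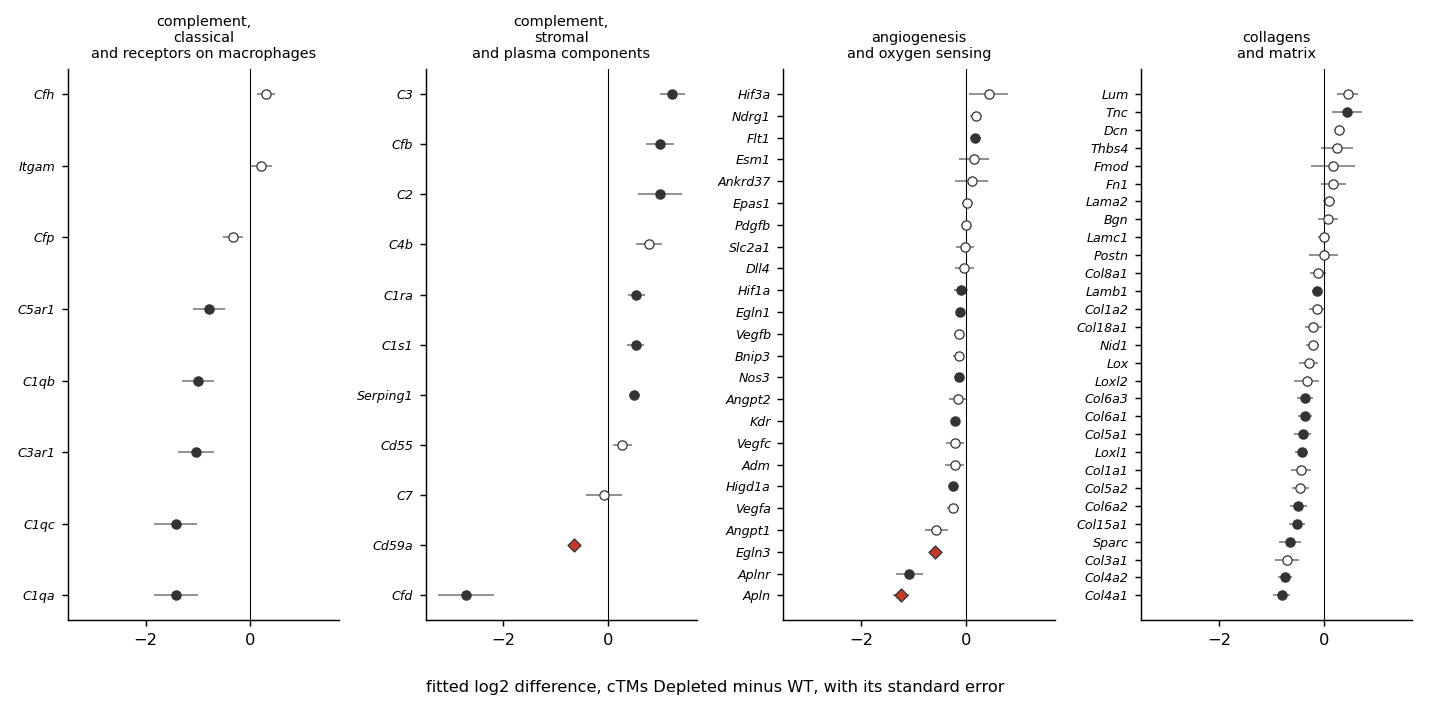
Fitted log2 differences, cTMs Depleted minus WT, with their standard errors, for the tested members of 4 gene lists; red diamonds passed, filled circles did not overlap between groups without passing, and open circles overlapped. C1q and complement receptor genes lie left of 0, C3, Cfb, C1ra and Serping1 lie right of it, and most collagen genes lie left of it.

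Genes of vessels and of matrix were among those that fell. Apln encodes apelin, a peptide made by endothelial cells of sprouting vessels, and Aplnr its receptor. Apln had 137, 127 and 87.8 normalised counts against 255, 281 and 287, with no overlap. It fell by 1.24 (SE 0.15, adjusted p 0.00839), to 42.7% of the WT mean, passed in the TPM table (0.0392), and lost the call only without WT 3 (0.0570) among the 11 fits that left out 1 library, in a range of 0.000434 to 0.0570 over 26 alternatives. Aplnr had 491, 563 and 291 against 836, 1032 and 883 (-1.08, SE 0.25) and did not pass (adjusted p 0.167). Egln3, an oxygen-sensing prolyl hydroxylase, fell from 920, 765 and 933 to 525, 591 and 604 (-0.60, adjusted p 0.0305), passing in 5 of these 11 fits. Of 24 tested genes of angiogenesis and oxygen sensing 18 were lower, 2 passed and 6 had an unadjusted p below 0.05, all lower, with a median of -0.14; Vegfa and Kdr differed by -0.25 and -0.21. The endothelial marker list had a median of -0.08, with 12 of 16 lower and 0 passing, 7 lower without overlap, and a summed level of 23819 to 25639 against 26104 to 27057 in WT. Its part in the apelin result was not tested. Shares over all genes tested were 4.31% lower at an unadjusted p below 0.05 and 8.15% lower without overlap. Cldn5, a tight junction gene of endothelium, was at 106, 192 and 113 against 356, 235 and 304 (-1.15, adjusted p 0.183), while the endothelial genes Cdh5 (-0.27), Tie1 (-0.25) and Pecam1 (-0.09) differed less.

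Elastin and fibrillar or basement membrane collagens were lower. Eln had 282, 270 and 351 normalised counts against 746, 548 and 479 and fell by 0.96 (SE 0.17, adjusted p 0.0483), passing in 3 of the 11 fits that left out 1 library. Col5a3, a minor fibrillar collagen chain, had 272, 241 and 231 against 647, 457 and 484 and fell by 1.08 (SE 0.16, adjusted p 0.0198), passing in 7 of them. The basement membrane chains Col4a1 and Col4a2 are encoded side by side. Col4a1 was at 3899, 4675 and 3658 against 7056, 6856 and 7339, and Col4a2 at 3415, 3823 and 3156 against 5744, 5467 and 6026. Neither overlapped between groups, at 57.6% and 60.3% of the WT means, with adjusted p of 0.0748 and 0.0545, and both passed when only these 2 groups were fitted (0.0118 for each, in ranges of 0.00366 to 0.342 and 0.00213 to 0.284). The matricellular gene Sparc was at 3084, 4054 and 3218 against 5035, 5710 and 5413. Of 29 listed genes of collagens and matrix 20 were lower and 0 passed in limma, 12 lower and 2 higher at an unadjusted p below 0.05, and 10 lower and 1 higher without overlap, with a median of -0.21. For all genes tested, 4.31% were lower and 3.23% higher at that p, and 8.15% and 8.51% did not overlap. Col1a1 and Col1a2 had differences of -0.44 and -0.13, and the proteoglycan genes Lum and Dcn of 0.45 and 0.30. Timp3, an inhibitor of metalloproteinases, was at 4217, 4080 and 4633 against 2379, 2929 and 3034 without passing (adjusted p 0.183), and Mmp9 at 8.45, 8.48 and 11.5 against 39.3, 26.6 and 16.8 (adjusted p 0.199).

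Genes that handle iron and lipid also fell. Trf encodes transferrin, the iron carrier of plasma. It had 222, 181 and 185 normalised counts against 451, 384 and 400 in WT and fell by 1.07 (SE 0.11, adjusted p 0.00343), to 47.6% of the WT mean. It passed in all 11 fits that left out 1 library, though not in the TPM table (-1.25, adjusted p 0.117, range 0.000147 to 0.117). Of 20 tested iron genes 15 were lower and 2 passed, Trf and Cd163, with 6 lower and 0 higher at an unadjusted p below 0.05. The iron exporter gene Slc40a1 was at 345, 383 and 304 against 413, 516 and 458 and the phagosomal transporter gene Slc11a1 at 33.1, 40.0 and 25.2 against 55.3, 74.2 and 60.8, without passing. Apoe, an apolipoprotein that macrophages secrete, had 1746, 1128 and 1437 against 2924, 2835 and 2491 and fell by 0.96 (SE 0.14, adjusted p 0.0165). Without cTMs Depleted 3 (0.0779), WT 1 (0.105), WT 2 (0.0768) or WT 3 (0.0570) it did not pass, in a range of 0.000873 to 0.105. Scd4, a desaturase that makes monounsaturated fatty acids in heart, had 152, 157 and 227 against 333, 376 and 429 and fell by 1.10 (SE 0.19, adjusted p 0.0469), passing in 4 of the 11 fits. Apoe and Scd4 both belong to the list of liver X receptor targets, of which 14 of 15 tested genes were lower, 3 at an unadjusted p below 0.05 and 6 without overlap, with a median of -0.21. Beside these and the iron genes, 4.31% of all genes tested were lower at that p and 8.15% lower without overlap.

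Several adipocyte genes lay below WT without passing. Of 8 tested genes 6 were lower and 0 passed in limma, with 5 at an unadjusted p below 0.05, 4 without overlap and a median of -1.60. That median rests on genes with few reads: it was -0.13 over the 5 genes whose mean over the 6 libraries reached the minimum, -0.02 over the 4 with a mean of at least 50 over all 11, and -0.70 in the TPM table. Lower at an unadjusted p below 0.05 were 4.31% of all genes tested, and lower without overlap 8.15%. Cfd, the adipocyte protease adipsin, was at 8.45, 4.95 and 2.16 normalised counts against 28.7, 58.4 and 27.2 (adjusted p 0.0778) and Car3 at 16.9, 17.0 and 12.2 against 59.5, 77.8 and 38.8 (adjusted p 0.0757). Adipoq, which encodes adiponectin, had 6 reads in cTMs Depleted and 30 in WT, a ratio of 0.163 (exact 95% interval 0.0556 to 0.399). Lep had 0 reads in 5 of the 6 libraries and Ucp1 in all 6. The list's summed level, most of which is Lpl, a lipase that cardiomyocytes also express, was 53089 to 69320 against 61321 to 68106.

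The remaining genes that fell are of mixed function. Hcn2, a pacemaker channel, had 166, 144 and 128 normalised counts against 298, 272 and 316 and fell by 1.02 (SE 0.15, adjusted p 0.0171). Hcn4 (-0.26), from the same family, did not pass, and of 7 tested genes of the conduction system 6 were lower and Hcn2 passed. Chp2, a calcineurin B homologous protein, had 8.45, 9.19 and 6.48 against 35.1, 27.6 and 26.2 (-1.76, adjusted p 0.0166). Prnd, a relative of the prion protein, had 45.0, 69.3 and 36.0 against 133, 129 and 129 (-1.41, adjusted p 0.0301). Tnfaip2, a gene induced by tumour necrosis factor, had 396, 510 and 413 against 784, 715 and 838 (-0.83, adjusted p 0.00844), and Klhdc8a 169, 179 and 168 against 347, 294 and 302 (-0.86, adjusted p 0.00910). In each of these 5 genes every cTMs Depleted library was below every WT library. Meox1, a homeobox transcription factor, Grip2, a scaffold protein, Arhgef19, a guanine nucleotide exchange factor, and Mdga1, a membrane-anchored adhesion protein, fell by 0.82, 0.80, 0.79 and 0.71, with adjusted p of 0.0426, 0.0469, 0.0332 and 0.0301. Klhdc8a and Tnfaip2 each passed in 8 of the 11 fits that left out 1 library, Chp2 in 7, Hcn2 in 6, Prnd, Meox1, Arhgef19 and Mdga1 in 4 and Grip2 in 2.

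Among the 11 genes that rose, Myh7 was the most abundant. Myh7 encodes the slow, beta myosin heavy chain, and Myh6 the alpha chain that dominates the adult mouse ventricle. Myh7 had 8978, 14558 and 9196 normalised counts in the cTMs Depleted libraries and 3453, 4116 and 3192 in WT. The groups did not overlap, and it rose by 1.58 on the log2 scale (SE 0.19, adjusted p 0.00839), or 3.04-fold. Myh7 made up 2.21%, 4.15% and 2.34% of the sum of both chains in cTMs Depleted and 0.855%, 1.09% and 0.744% in WT, while Myh6 differed by -0.11. In the TPM table the difference of Myh7 was 0.81 and did not pass (adjusted p 0.117, the highest over its 26 alternatives, the lowest being 0.000365), and it did not pass without WT 1 (0.0538) or WT 3 (0.0570). The chains are near-identical over long stretches, and no source used here tells how reads were divided between them. Of the other genes of the fetal programme 0 passed. Nppa was at 2247, 2919 and 2415 against 16848, 3778 and 2066, and of 14 tested genes in that list 9 were higher and 5 lower.

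The other genes that rose did so by less in most cases. Gfpt2, an enzyme that feeds the hexosamine pathway, had 262, 386 and 297 normalised counts against 138, 156 and 167 (1.02, adjusted p 0.0301). Fmo2, a flavin-containing monooxygenase, had 618, 583 and 810 against 355, 393 and 302 (0.93, adjusted p 0.0188). Ppl, which encodes the junctional protein periplakin, had 208, 173 and 275 against 100, 105 and 103 (1.06, adjusted p 0.0426). Ier3, an immediate early gene, had 389, 366 and 439 against 242, 247 and 227 (0.73, adjusted p 0.0480). In all 4, each cTMs Depleted library was above each WT library. The lincRNA Gm12840 rose by 0.99 (adjusted p 0.0126). Fmo2 passed in 8 of the 11 fits that left out 1 library, Gfpt2 and Gm12840 in 6, Ppl in 5 and Ier3 in 2. The other 5, Slc43a3, Gchfr, Capn3, Gm14085 and the pseudogene Pcna-ps2, stand in a separate pattern across the series.

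For 7 of the 33 genes (21.2%) the WT libraries lay apart from all 8 libraries of the other 3 groups, on 1 side, against 174 of 13884 genes tested (1.25%). These were Cd163, Cd59a, Slc43a3, Gchfr, Capn3, Gm14085 and Pcna-ps2. Gm14085 was at 33.4, 89.8 and 58.2 normalised counts in cTMs Depleted, at 96.4 to 148 in the Mertk-KO and LxRαβ DKO libraries and at 9.41, 9.92 and 4.40 in WT. Gchfr, a regulator of tetrahydrobiopterin synthesis, was at 63.3, 69.3 and 60.4, at 83.4 to 119 in the other 2 groups and at 30.8, 31.7 and 25.1 in WT. Slc43a3, a membrane transporter, was at 954, 965 and 1142, at 738 to 837 and at 619, 715 and 734. Capn3, a muscle calpain, was at 53.5, 58.4 and 80.6, at 55.6 to 84.3 and at 25.5, 28.7 and 24.1. Cd59a was at 320 to 352 in the other 2 groups, below both cTMs Depleted and WT. Pcna-ps2, a processed pseudogene whose reads cannot be told from those of Pcna with certainty, was at 54.4, 141 and 160, at 52.4 to 165 and at 3.10, 0 and 5.77. Pcna itself was at 397, 306 and 304 against 450, 437 and 435. Gm14085 passed in 9 of the 11 fits that left out 1 library, Gchfr in 6, Capn3 in 4 and Slc43a3 in 2. In Cd163, where they were at 121 to 198, and in Slc43a3 the other 2 groups lay between WT and cTMs Depleted. In 27 of the 33 (81.8%) the cTMs Depleted libraries lay apart from all 8 others, against 919 genes tested (6.62%), among them Timd4, Trf, Apln, Apoe and Myh7. All 33 were called on cTMs Depleted against WT and already separated those groups. Both shares among the 33 are therefore raised by the call itself, and the shares over all genes tested are not like for like.

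Of the 33 genes, 6 (18.2%) lie on chromosome 2, which carries Siglec1 and 7.98% of the genes tested. Slc43a3 (chr2:84936579-84958509), Cd59a (chr2:104095801-104115354), Gchfr (chr2:119167773-119172390), Capn3 (chr2:120456019-120504913) and Gm14085 (chr2:122484941-122528040) start -46.1, -27.0, -11.9, -10.6 and -8.58 megabases from the lower coordinate of Siglec1. Prnd (chr2:131950861-131956130) starts 0.882 megabases past it. Of the 18 genes that passed without cTMs Depleted 1 but not with all libraries, 6 also lie on this chromosome, Siglec1 itself, Gm28042, Jmjd7, Smox, Ivd and Serping1. Gm28042 (chr2:120027493-120043033) and Jmjd7 (chr2:120027483-120032594) overlap on the plus strand, so they are not independent. In the Mertk-KO and LxRαβ DKO libraries Gm28042 was at 3.32 to 24.2 and Jmjd7 at 5.15 to 16.2. WT was higher, at 34.5 to 78.4 and 40.3 to 73.7. No source used here gives the strain background of the CD169-DTR or the WT mice, and an effect of background, of the allele or of depletion on these genes cannot be told apart.

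In most genes of the circadian clock the groups did not overlap, though 0 passed, and the WT libraries differed among themselves. In the core loop, Arntl (BMAL1) and Clock drive transcription through the E-box CACGTG, Per and Cry proteins repress them, and Dbp, Tef and Hlf are output factors. Of 19 tested clock genes 13 were higher, 11 of them at an unadjusted p below 0.05 and 12 without overlap. The other 6 were lower, 3 of them at an unadjusted p below 0.05 and 4 without overlap. Over all genes tested, 3.23% were higher and 4.31% lower at that p, and 8.51% and 8.15% did not overlap. The median was 0.48, and none of the 19 passed in limma. The 2-group fit called 3 of them, all higher. The 250 bases before a RefSeq start (GRCm38.p6) of Per1 and of Ciart are shown, since both hold the motif. These are the members with the highest fold change. Where a gene had several windows, the one with the most matches was taken. Capitals mark CACGTG. Per1 is chr11:69098699-69098948, plus strand, and Ciart is chr3:95882229-95882478, minus strand. As placed by GENCODE, Per1 spans chr11:69095217-69109960 on the plus strand, so the window shown lies inside the gene.
Per1: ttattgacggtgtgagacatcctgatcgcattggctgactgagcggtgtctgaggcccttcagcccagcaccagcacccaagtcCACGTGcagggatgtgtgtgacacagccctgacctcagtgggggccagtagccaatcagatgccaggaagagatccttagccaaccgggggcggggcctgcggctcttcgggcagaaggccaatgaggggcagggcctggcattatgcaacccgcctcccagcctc
Ciart: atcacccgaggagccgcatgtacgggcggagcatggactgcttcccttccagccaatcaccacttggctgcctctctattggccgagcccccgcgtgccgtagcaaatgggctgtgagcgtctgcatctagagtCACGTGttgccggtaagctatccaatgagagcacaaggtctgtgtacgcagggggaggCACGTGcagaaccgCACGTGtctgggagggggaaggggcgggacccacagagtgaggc
The first base of the match lies at -166 from the RefSeq start used for Per1 and at -116, -58 and -44 from that of Ciart. The motif reads the same on both strands, so 1 search covers both. Of 32851 promoter windows 1978 (6.02%) held it. Of 16 clock genes, with 21 windows between them, Bhlhe41, Ciart, Cry1, Per1 and Tef held it in at least 1. The share is per window and the clock genes are counted per gene, so the 2 are not like for like. A match is only a run of letters and says nothing of binding in these hearts.

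Among the repressors, Per1 had 1257, 1275 and 1648 normalised counts in the cTMs Depleted libraries and 224, 453 and 572 in WT. Per2 had 428, 407 and 509 against 88.3, 193 and 203, and Ciart had 360, 378 and 399 against 44.7, 118 and 150. In all 3 the groups did not overlap and WT 1 was the lowest library. Their log2 differences of 1.83, 1.55 and 2.02 did not pass (adjusted p 0.346, 0.466 and 0.284). Per3 (0.98) and Cry2 (0.48) were higher too. Of the activators, Arntl had 7.04, 29.7 and 18.0 against 200, 73.7 and 69.2 (-2.60, adjusted p 0.108), and Clock 454, 592 and 474 against 762, 640 and 653. Arntl was highest in WT 1, the library that was lowest in Per1. Of the output genes, Dbp had 1916, 1757 and 1996 against 555, 1197 and 1374, Tef 3640, 3136 and 3654 against 1531, 2476 and 2533, and Hlf 809, 791 and 1048 against 455, 536 and 575. In the other groups Per1 ranged from 161 to 1034 and Arntl from 92.9 to 331, so that cTMs Depleted had the 3 lowest Arntl values and the 3 highest Per1 values of the series. No source used here gives the hour at which hearts were taken, and its part in the result was not tested.

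**Figure D4:**
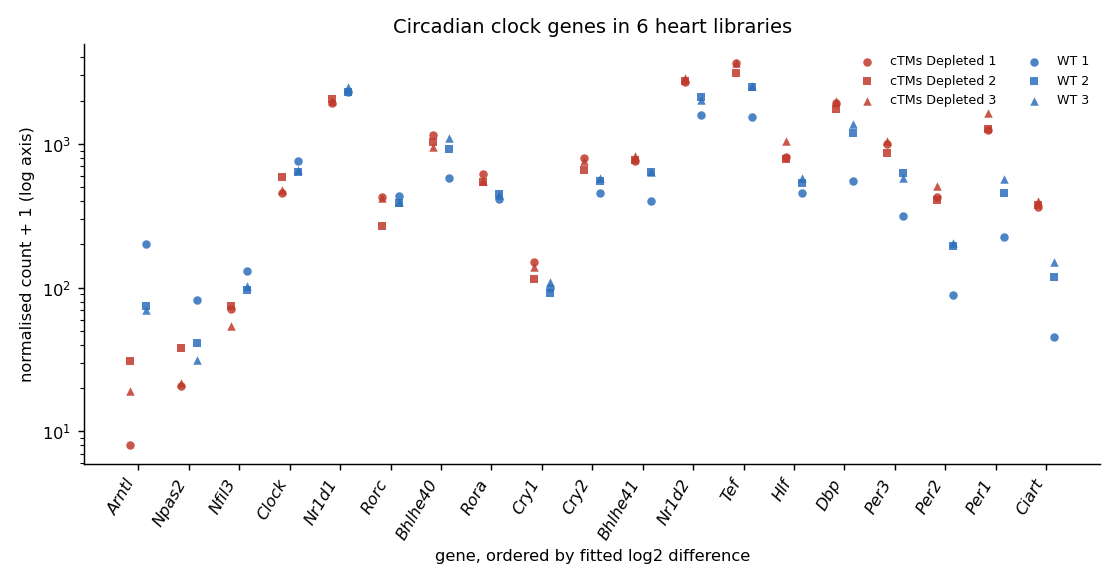
Normalised count + 1 on a log axis for the 19 clock genes, ordered by fitted log2 difference, with 1 point per library. Arntl, at the left, is lower and Per2, Per1 and Ciart, at the right, are higher in the 3 cTMs Depleted libraries than in any WT library, and WT 1 is the farthest WT point.

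Genes that respond to glucocorticoids, of which Per1 is one, lay mostly above WT. Of 16 tested genes 13 were higher, 5 of them at an unadjusted p below 0.05 and 6 without overlap, with a median of 0.44 and 0 passing. The other 3 were lower, 1 of them at that p and 2 without overlap, with the lowest difference at -1.34. Over all genes tested, 3.23% were higher and 4.31% lower at that p, and 8.51% and 8.15% did not overlap. The summed level of the list was not raised, at 10193 to 16115 in cTMs Depleted and 13830 to 16741 in WT. Tsc22d3, which encodes GILZ, was at 1078, 1128 and 1592 normalised counts against 647, 784 and 836 (0.73, adjusted p 0.175), and Ddit4 at 298, 251 and 551 against 149, 164 and 231. The immediate early gene Fos was widely spread, at 77.4, 26.9 and 31.7 against 216, 46.1 and 484. Herpud1, of the unfolded protein response, was at 2831, 2294 and 2826 against 1558, 1852 and 1945 (0.57, adjusted p 0.0757), and the other 18 tested genes of that list and of heat shock did not pass either.

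Mitochondrial and autophagy genes differed little. Of 46 nuclear-encoded respiratory chain genes 41 were lower, but the median was -0.06 and 0 passed in limma. At an unadjusted p below 0.05, 2 were lower, beside 4.31% of all genes tested. The list's median was 0.04, -0.18 and -0.02 in cTMs Depleted 1, 2 and 3, and the fitted median was 0.006 without cTMs Depleted 2. The largest difference was that of Cox7a1, at 6502, 4950 and 5379 normalised counts against 7140, 6913 and 7021 (-0.33, adjusted p 0.416). The 13 genes encoded in the mitochondrial genome had a median of -0.09, 12 of them lower, and 0 had an unadjusted p below 0.05. Of 22 genes of mitochondrial biogenesis, dynamics and quality control 0 passed and 0 had an unadjusted p below 0.05, with a median of -0.02, and Ppargc1a, the regulator of biogenesis, was at 1447, 1406 and 1493 against 1366, 1244 and 1225. Of 24 autophagy genes 0 passed and 0 had an unadjusted p below 0.05, with a median of 0.02. Sqstm1, the autophagy receptor p62, was at 5457, 4641 and 4135 against 3489, 4611 and 3841, with overlap. Lysosomal genes had a median of -0.01, genes of fatty acid uptake and oxidation of 0.05, of glycolysis of -0.02 and of calcium cycling of -0.05, and 0 passed in each. The fatty acid median was -0.04 without cTMs Depleted 3. Of its 29 genes 2 were lower at an unadjusted p below 0.05 and 2 lower without overlap, the lowest at -1.34. Over all genes tested these shares were 4.31% and 8.15%. The ventricular cardiomyocyte list had a median of -0.03. Of 20 tested genes of uptake of dying cells and debris 8 were higher and 12 lower; Timd4 passed, and Axl, a receptor of the same family as Mertk, was at 1202, 1708 and 1434 against 974, 1188 and 1052. A p above the threshold does not show that such genes were equal.

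Other cell types of the heart varied by library. MHC class II genes had a median of 0.22 in cTMs Depleted 1, -0.80 in cTMs Depleted 2 and -0.86 in cTMs Depleted 3, with WT at -0.16 to 0.13; Cd74 was at 1413, 731 and 718 normalised counts against 1249, 1399 and 1447. Ighm, the heavy chain of IgM in B cells, was at 98.5, 53.7 and 29.5 against 135, 168 and 119. Itgax, an integrin of dendritic cells, was at 27.9, 26.1 and 54.7 against 10.6, 9.21 and 13.6 without passing (adjusted p 0.636). Of the 4 tested dendritic cell genes 2 were higher and 2 lower, with a median of -0.05. In that list 1 higher gene and 2 lower genes did not overlap, beside 8.51% higher and 8.15% lower of all genes tested. Erythrocyte genes were lower in 7 of 7, at a median of -0.58, with summed levels of 3509 to 5089 against 5249 to 8760. Atrial genes summed to 27805, 8935 and 4486 in WT 1, 2 and 3 and to 4183, 6125 and 7934 in cTMs Depleted 1, 2 and 3, so WT 1, the extreme library for the clock genes, also held the most atrial RNA; its part in those results was not tested. Mesothelial genes were nearly absent from WT 3, where Upk3b was at 2.10 against 61.7 to 85.9 in the other 5 libraries. Genes of lung epithelium summed to at most 6.1 in any library.

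**Figure D5:**
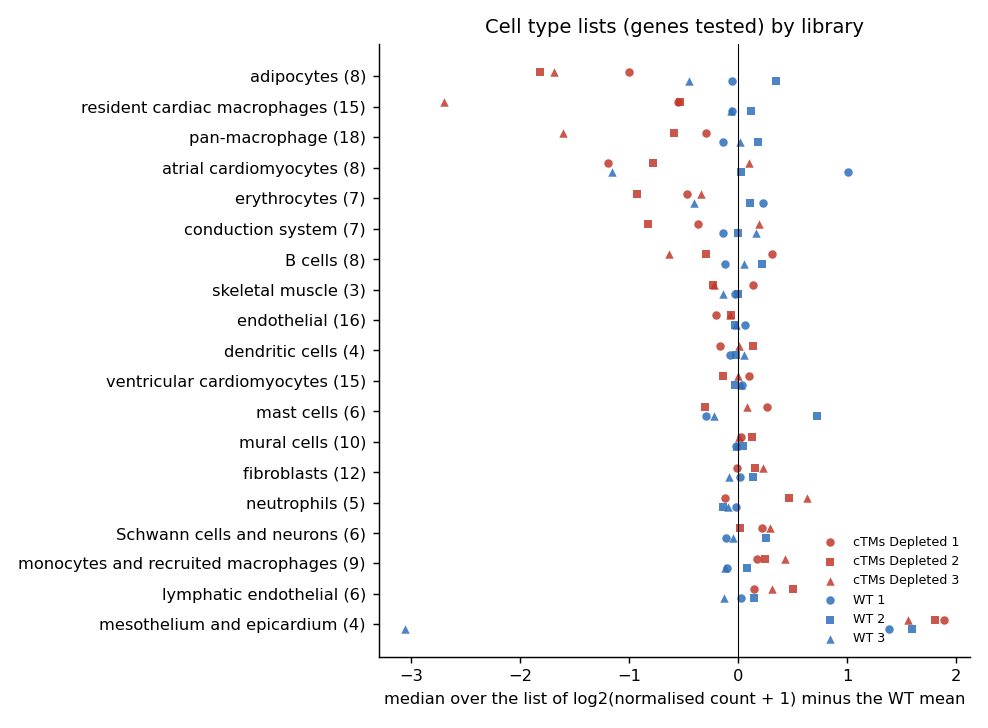
Median over each cell type list (genes tested in brackets) of log2(normalised count + 1) minus the WT mean, with 1 point per library, lists ordered by fitted difference. The resident macrophage, pan-macrophage, adipocyte, erythrocyte and endothelial lists lie below 0 in all 3 red cTMs Depleted libraries. The monocyte, mesothelial, lymphatic endothelial, mural and Schwann cell lists lie above 0 in all 3. In the erythrocyte, mesothelial, lymphatic endothelial, mural and Schwann cell lists the blue WT points overlap with the red ones. Mesothelial WT 1 and 2 are at 1.39 and 1.60 and WT 3 at -3.05, against 1.56 to 1.88 in cTMs Depleted. Schwann cell WT 2 is at 0.26, and erythrocyte WT 3 at -0.40 lies below cTMs Depleted 3 at -0.34.

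The lists not yet described had 0 genes passing in limma unless named. Those with a median between -0.1 and 0.1 were mast cells, skeletal muscle, interferon response, antioxidant response, heat shock and unfolded protein response, transforming growth factor beta response, macrophage growth factors, sterol synthesis, matrix metalloproteinases (Mmp13 passed), ion channels (Hcn2 passed), mural cells, cytosolic ribosomal proteins and chemokines. Such a median can hide opposite changes. Of 20 tested metalloproteinase and inhibitor genes 4 were higher and 6 lower at an unadjusted p below 0.05, and 6 and 4 did not overlap. Over all genes tested these shares were 3.23% and 4.31%, and 8.51% and 8.15%. Of 36 ribosomal protein genes 34 were higher, at a median of 0.08. The mural median of 0.09 was -0.03 without WT 3. The medians of 8 further lists depended on single libraries, and their ranges over the 11 fits that left out 1 library follow. Neutrophil genes had a median of 0.14 (-0.07 without WT 1 to 0.48 without WT 3), and it was -0.008 without cTMs Depleted 2. B cell genes were at -0.17 (-0.41 without cTMs Depleted 1 to 0.10 without cTMs Depleted 3), and at -1.35 with a minimum mean of 50, which left 1 gene. Dendritic cell genes were at -0.05 (-0.12 without cTMs Depleted 2 to 0.07 without cTMs Depleted 1) and Schwann cell and neuron genes at 0.15 (-0.08 without WT 3 to 0.29 without WT 2). Elastic fibre genes, of which Eln passed, were at -0.17 (-0.17 without WT 3 to 0.09 without cTMs Depleted 1), and at 0.05 in the TPM table. Immediate early genes, of which Ier3 passed, were at 0.16 (-0.18 without WT 2 to 0.28 without WT 3), and at -0.06 without cTMs Depleted 1. None of these 6 medians therefore has a stable direction. Cell cycle genes were at -0.24 (-0.34 without cTMs Depleted 2 to -0.008 without cTMs Depleted 1), and lymphatic endothelial genes at 0.28 (0.11 without WT 1 to 0.48 without cTMs Depleted 1). Of the T and NK cell genes only Cd4 was tested.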

How the data were processed

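PolyA RNA of whole hearts was amplified with the Ovation Single Cell kit and sequenced as Illumina libraries, per the labels' protocols. RSEM 1.2.20, kallisto 0.43.1, CASAVA 1.8.2, cutadapt and the build GRCm38 are named in the submitters' processing notes; which tool made which table was not stated in any source used here. As deposited by the authors, the tables hold a signal per gene as normalised counts for 35584 genes and a second signal as normalised TPM for 33318. Each value of the first is reads on a per-million scale with 0.5 read added, as read from the values. The addition was removed to recover estimated reads, of which 58.4% to 62.4% of low values were whole within 0.01 read, so no count test was run. Reads were scaled from each effective size to the mean one. The planned minimum and pseudocount were applied on this scale.

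Tests took genes whose mean over the 11 libraries reached 10 normalised counts and used limma 3.58.1 in R 4.3.3 (lmFit, eBayes with a trend) on log2(value + 1), with 4 groups in 1 model that leaves 7 residual degrees of freedom; they are two-sided, with Benjamini-Hochberg adjustment at 0.05. This scale understates changes of low genes. The TPM table was tested on log2(TPM + 0.1) for means of at least 0.5. The procedure was tested on simulated data. Values are normalised counts per library, and SE is that of the log2 difference. Intervals are exact Clopper-Pearson and cover counting error only, since amplified reads are not independent molecules.

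The 53 gene lists hold 842 genes, of which 745 were tested, and were chosen with earlier results of these data known, as was the comparison. Named genes were Siglec1, every gene that passed apart from predicted models and pseudogenes (of which the largest differences could be named), the macrophage and monocyte genes (some list members are not reported here), up to 4 genes per list with the smallest p, and list members without overlap as examples. Genes named outside this rule, Pcna, Pecam1, Myh6, the genes that passed without cTMs Depleted 1 but not with all libraries, and some list members close to WT, were chosen after their values were seen. Gene positions are from GENCODE M21 and promoters from RefSeq (GRCm38.p6). Alternatives covered pseudocount, minimum, scaling, the TPM table, the samples fitted, library weights, voom, the trend, a replicate block, gene length and each library left out.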

Additional observations from a re-analysis of the deposited data

How the results depend on the processing

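The count of 33 genes (11 higher, 22 lower) was 33 or 34 with a pseudocount of 0.5 or 5, no minimum, the minimum set over the 6 libraries, or a gene length trend removed, 36 with median-of-ratios scaling and 30 with quantile normalisation. It was 23 (14 lower) with a minimum mean of 50, 28 with voom (7 higher), 18 without a trend (6 higher, 12 lower) and 7 in the TPM table (2 higher, 5 lower). It was 66 when only the 2 groups were fitted (25 higher, 41 lower), 219 with library weights (80 higher, 139 lower), and 113 (42 higher, 71 lower) with only the 2 groups without cTMs Depleted 1, an alternative chosen after seeing the data. A replicate block gave 22 (7 higher, 15 lower), 21 of them among the 33. Same-numbered libraries of the 2 groups, after removal of group means, correlated at 0.00798, 0.0603 and -0.0937. No pairing by number was seen, but so few libraries could miss a weak one. Leaving out 1 library at a time gave 3 to 84 genes, 1 to 38 higher and 2 to 46 lower: without cTMs Depleted 2 the count was 16, without cTMs Depleted 3 it was 9, without WT 1, 2 or 3 it was 6, 15 or 3, and without Mertk-KO 1 or 2 it was 84 or 83. The cause of these shifts was not tested. Of 176 named genes only Cd4, Cd68, Gas6, Hcn4, Nr4a1, Spi1, Thbs1 and Vcan, none of which passed, changed sign in any of the 26 alternatives. When 1 library at a time was left out, Cd4 ranged from -0.373 to 0.569, Hcn4 from -0.42 to 0.0282, Cd68 from -0.368 to 0.18, Gas6 from -0.0986 to 0.0254, Nr4a1 from -0.42 to 1.196, Thbs1 from -0.566 to 0.20 and Vcan from -0.0596 to 0.310. With only the 2 groups without cTMs Depleted 1, Cd4 was at -0.373, Nr4a1 at -0.19 and Thbs1 at 0.20. With library weights Cd4 was at -0.0215 and Thbs1 at 0.0657, with voom Cd4 was at -0.0160, and in the TPM table Spi1 was at 0.33 and Vcan at -0.30. Genes near the floor of 3 reads, such as Mmp13, Timd4 and Vsig4, are limited by depth, and cTMs Depleted 1 was the shallowest of the 11 libraries.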
